A study of Mus musculus with 8 samples.

Results

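The effect of a Bach2 vector was measured in T follicular helper (Tfh) cells, the CD4 T cells that help B cells in lymphoid follicles. The comparison sets the 2 Tfh libraries with the Bach2 vector against the 2 Tfh libraries with the empty vector, 4 of the 8 libraries in all, and it covers every gene. The libraries were chosen by their titles alone, and no measured value entered the choice. All 8 libraries entered the fit, so that they share 1 estimate of the spread.

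All groups have the same origin. Donor T cells came from Smarta mice, which carry a transgenic T cell receptor, crossed to CreERT2 mice, which carry a tamoxifen-activated recombinase. The cells received an inducible retroviral Bach2 vector or the empty control vector and were transferred into C57BL/6 recipients, which keep their own lymphocytes. Recipients were immunized under the skin with GP61-80 and nitrophenol on a mouse serum albumin carrier. The labels give 1 protocol for all samples: tamoxifen was injected into the peritoneum on day 5 and the inguinal lymph nodes were taken 18 hours later and pooled. Donor cells were sorted as Thy-1.1+ and CD44hi, and Tfh cells as CXCR5+ PD-1+. The other group, non-Tfh cells, was CXCR5- PD-1-. The labels give no age of the mice, no number of mice in a pool, and no promoter for the vector, and they do not say whether replicates were separate cultures or animals. The p-values therefore measure only the spread between these libraries, which may be technical.

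Bach2 is a transcriptional repressor with a basic leucine zipper. It pairs with small Maf proteins and binds sites that overlap those of AP-1, the Jun, Fos and Batf factors that act downstream of the T cell receptor. In naive T cells it is known for holding back effector genes. Tfh cells depend on Bcl6, carry CXCR5 and PD-1, divide during the early response, and give B cells IL-21, IL-4 and CD40 ligand.

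The vector was visible in the counts. Bach2 stood at 11.2 and 14.0 CPM in the empty vector libraries and 121 and 135 CPM in the Bach2 libraries, where CPM are counts scaled to the normalized size of each library. Both Bach2 libraries lay far above both empty vector libraries, and Bach2 had the largest rise among genes past the threshold (log2 fold change 3.35, SE 0.149, adjusted p = 2.86e-08). Counts on Bach2 combine the vector's transcript with the cell's own, and the difference between them was not resolved here.

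Library totals ran from 7862879 to 9889859 counts over the 8 libraries, and 14689 to 15167 genes had at least 1 count. A gene with 0 counts in a library allows a level of up to 0.303 to 0.382 CPM (3 counts), which covers counting error only because the reads carry no molecular identifiers. The 10 Tfh defining genes summed to 3665 and 3232 CPM in the empty vector libraries, 3068 and 2610 CPM in the Bach2 libraries, and 1549 and 1438 CPM in non-Tfh cells with empty vector. The labelled identity was thus visible in every Tfh library. None of the 24 defining genes of CD4 T cells and Tfh cells passed the test for the vector, against 1.71% of all tested genes. A list of 24 genes is too short to tell this from that share. All 10 Tfh genes were negative, however (median log2 fold change -0.25). In 7 of them both Bach2 libraries lay below both empty vector libraries, against 22.9% of all tested genes. Of the 14 CD4 T cell genes, 10 were positive and 4 negative (median 0.05). Genes listed for other cells varied widely in the Tfh libraries. Ms4a1 reached at most 0.702 CPM, Pax5 0.802 CPM and Cd8a 0.217 CPM, and Ncr1 had 0 counts, whereas Cd22 stood at 157 to 230.1 CPM, Cd37 at 213 to 239 CPM and Cd8b1 at 14.7 to 20.2 CPM. The 23 B cell and plasma cell genes summed to 1279 and 1171 CPM in the empty vector libraries and 1279 and 1082 CPM in the Bach2 libraries, mostly from Ighm at 681 to 818 CPM. The 9 genes of CD8 T cells and NK cells summed to 80.4 and 82.2 CPM in the empty vector libraries and 119 and 108 CPM in the Bach2 libraries, mostly from Klrb1c, and their part in the results was not tested. The 23 genes of macrophages, dendritic cells and granulocytes summed to 13.8 to 22.6 CPM. The 14 genes of stroma, endothelium and red cells summed to 229 and 236 CPM in the empty vector libraries and 249 and 281 CPM in the Bach2 libraries, almost all from Pecam1, and 9 of the 14 had 0 counts in every Tfh library; their part in the results was not tested.

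Of 11475 genes tested, 63 rose and 133 fell with Bach2 in Tfh cells at an adjusted p below 0.05 (edgeR's quasi-likelihood test, adjusted after Benjamini and Hochberg, as for every adjusted p here). That is 1.71% of the genes tested, 0.549% upward and 1.16% downward. All 196 had both Bach2 libraries on 1 side of both empty vector libraries, which was so for 2486 tested genes upward (21.7%) and 2631 downward (22.9%). Changes were small: the median log2 fold change was 0.51 among genes that rose and -0.74 among genes that fell, and 22 of the 196 changed at least 2-fold, 3 upward and 19 downward. The median over all tested genes was -0.000538. The counts rested strongly on single libraries. Without empty vector replicate 2 in Tfh cells, 6 genes rose and 15 fell, and without Bach2 replicate 2, 8 rose and 27 fell. Without Bach2 replicate 1, 133 rose and 111 fell, and without empty vector replicate 1, 64 rose and 159 fell. Leaving out 1 of the non-Tfh libraries, which are not part of the contrast, gave 43 to 100 rises and 111 to 154 falls: 100 rises without the non-Tfh Bach2 replicate 1 and 95 without replicate 2. Each of the 196 calls kept its direction under every library left out. Of the 133 genes that fell, 115 were higher in empty vector replicate 2 than in replicate 1.

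**Figure D1:**
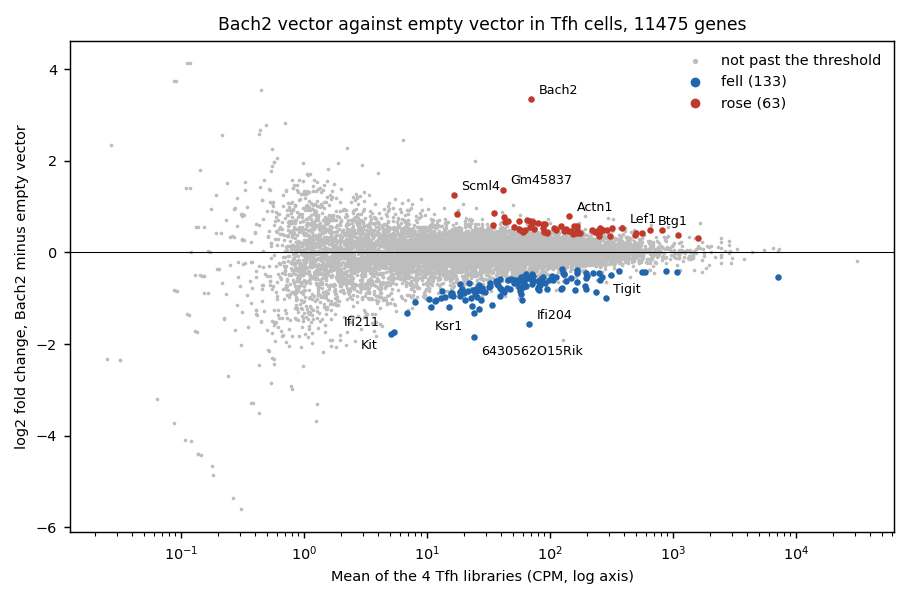
Log2 fold change of Bach2 minus empty vector in Tfh cells (vertical axis) against the mean of the 4 Tfh libraries in CPM (horizontal, log axis), 1 point per tested gene. Red points are the 63 genes that rose and blue points the 133 that fell, and Bach2 stands apart at 3.35.

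Among named genes past the threshold, 14 stayed past it whichever of the 4 Tfh libraries was left out. They were Bach2, Actn1, Foxp1, Pde4b, 6430562O15Rik, Ifi204, Cdc6, Mcm5, Ccna2, Cdkn1a, S100a4, Map2k3, Tigit and the gene ENSMUSG00000091747, which has no symbol in the annotation used. The calls of Jak1, Btg2, Chek1, Syce2, Fancd2, Atad5, Cks2, Odc1, Frmd4b and Smim3 were lost whichever of the 4 was left out. So were those of Bcl2l11, Cenpk, Foxo1 and Gata3. For other genes the highest adjusted p with 1 Tfh library left out is given where the gene is described in full, together with that library.

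The largest rises after Bach2 itself were in genes of mixed function. Gm45837, a predicted gene with no assigned role, stood at 27.3 and 18.2 CPM in the empty vector libraries and 56.5 and 62.4 CPM in the Bach2 libraries. Both Bach2 libraries lay above both empty vector libraries, of which replicate 1 was the higher (log2 fold change 1.37, SE 0.268, adjusted p = 0.0460; adjusted p up to 0.260, without empty vector replicate 2). Its span overlaps that of Arap1 on the same strand, so its reads may not be fully separated from those of Arap1. Overlaps named here are of whole gene spans, and exons were not compared. Scml4, a relative of the Polycomb group proteins, stood at 9.93 and 9.49 CPM in the empty vector libraries and 17.4 and 29.2 CPM in the Bach2 libraries. The empty vector libraries were close together and the Bach2 libraries differed from each other, Bach2 replicate 2 being the highest (log2 fold change 1.25, SE 0.218, adjusted p = 0.0178; adjusted p up to 0.162, without empty vector replicate 2).

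F2rl1, the protease-activated receptor PAR2, stood at 27.6 and 21.8 CPM in the empty vector libraries and 43.7 and 46.6 CPM in the Bach2 libraries. The groups did not overlap (log2 fold change 0.87, SE 0.169, adjusted p = 0.0201; adjusted p up to 0.210, without empty vector replicate 2). Hs3st3b1, a heparan sulfate sulfotransferase, had 12.8 and 12.3 CPM in the empty vector libraries and 19.7 and 25.6 CPM in the Bach2 libraries (log2 fold change 0.85, SE 0.174, adjusted p = 0.0248; adjusted p up to 0.184, without Bach2 replicate 2). Actn1, the actin crosslinker alpha-actinin, stood at 103 and 107 CPM in the empty vector libraries and 178 and 185 CPM in the Bach2 libraries. Replicates agreed closely in both groups, and the rise held with each library left out (log2 fold change 0.79, SE 0.114, adjusted p = 0.00674; adjusted p up to 0.0486, without empty vector replicate 2).

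Bcl2l11, which encodes the death-promoting protein Bim, stood at 33.9 and 32.4 CPM in the empty vector libraries and 51.1 and 54.5 CPM in the Bach2 libraries. The Bach2 libraries were both higher, but the call was lost with each single Tfh library left out (log2 fold change 0.67, SE 0.144, adjusted p = 0.0304; adjusted p up to 0.219, without empty vector replicate 2). Xdh, the xanthine dehydrogenase of purine breakdown, had 65.3 and 59.7 CPM in the empty vector libraries and 99.5 and 96.8 CPM in the Bach2 libraries (log2 fold change 0.65, SE 0.106, adjusted p = 0.0104; adjusted p up to 0.104, without empty vector replicate 2). Acss1, a mitochondrial enzyme that turns acetate into acetyl-CoA, had 43.0 and 42.6 CPM in the empty vector libraries and 59.5 and 79.0 CPM in the Bach2 libraries (log2 fold change 0.69, SE 0.145, adjusted p = 0.0282; adjusted p up to 0.220, without Bach2 replicate 2). It overlaps E130215H24Rik on the opposite strand, and without strand information reads from any exon stretch shared by such partners cannot be told apart. The same limit holds for Ccna2, Ccne2, Cdca8, Cenpk, Chaf1a, Cxcr5, Gapdh, Hat1, Il21, Jak1, Lig1, Ncapg, Rad54l, Rasa1, Rfc4, Rfc5, Ska3, Syce2, Tacc3, Tcf7, Tk1, Tnfrsf9, Ubac2 and Znrf1 among the genes named here, each of which overlaps a tested gene on the opposite strand. Foxp1, Stk38 and Tcf7 overlap a tested gene on the same strand. In Bcl2l11, Xdh and Acss1 both Bach2 libraries lay above both empty vector libraries. Other genes among the 15 largest rises were Runx1 and Itga6, described with the naive cell genes, Aff4, a scaffold of the super elongation complex (log2 fold change 0.68, adjusted p = 0.0178), the predicted gene Gm14085 (log2 fold change 0.78, adjusted p = 0.0308) and Gpr155 (log2 fold change 0.64, adjusted p = 0.0393).

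The largest fall was in 6430562O15Rik, annotated as a processed transcript that codes for no protein, at chr13:99396924-99412876 (GRCm38, minus strand). It stood at 42.8 and 32.5 CPM in the empty vector libraries and 11.9 and 8.94 CPM in the Bach2 libraries. The highest Bach2 library lay below the lowest empty vector library by a wide margin (log2 fold change -1.85, SE 0.244, adjusted p = 0.00386; adjusted p up to 0.0369, without Bach2 replicate 2). It overlaps Mrps27 on the opposite strand, so reads from any exon stretch shared by the 2 genes cannot be told apart.

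Kit, the receptor for stem cell factor, was low in all libraries, at 10.2 and 5.69 CPM in the empty vector libraries and 3.04 and 1.57 CPM in the Bach2 libraries. Empty vector replicate 1 was the highest, and leaving it out ended the call, as did leaving out Bach2 replicate 2 (log2 fold change -1.78, SE 0.376, adjusted p = 0.0283; adjusted p up to 0.198, without Bach2 replicate 2). The next genes were a pair of interferon-inducible members of the p200 family. Ifi211 stood at 8.23 and 8.48 CPM in the empty vector libraries and 2.82 and 2.17 CPM in the Bach2 libraries (log2 fold change -1.73, SE 0.342, adjusted p = 0.0207; adjusted p up to 0.152, without Bach2 replicate 2), and Ifi204 at 83.6 and 120.3 CPM in the empty vector libraries and 37.5 and 30.7 CPM in the Bach2 libraries (log2 fold change -1.57, SE 0.177, adjusted p = 0.00386; adjusted p up to 0.0441, without Bach2 replicate 2). Groups did not overlap for either gene. Both belong to a family of close copies, and Ifi211 overlaps Mndal on the same strand, so the way their reads were split is uncertain.

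Ksr1, a scaffold that joins the kinases of the Raf, MEK and ERK cascade, stood at 28.1 and 41.4 CPM in the empty vector libraries and 15.5 and 11.96 CPM in the Bach2 libraries. Both Bach2 libraries were below both empty vector libraries, of which replicate 2 was the higher (log2 fold change -1.33, SE 0.211, adjusted p = 0.00990; adjusted p up to 0.104, without empty vector replicate 2). Il18rap, a subunit of the interleukin 18 receptor, had 39.7 and 53.7 CPM in the empty vector libraries and 16.6 and 25.2 CPM in the Bach2 libraries (log2 fold change -1.16, SE 0.205, adjusted p = 0.0270; adjusted p up to 0.131, without empty vector replicate 2). S100a4, a calcium-binding protein of effector and memory T cells, stood at 78.9 and 80.7 CPM in the empty vector libraries and 39.5 and 38.2 CPM in the Bach2 libraries, with very little spread within each group (log2 fold change -1.04, SE 0.106, adjusted p = 7.35e-04; adjusted p up to 0.0124, without Bach2 replicate 2). Cdkn1a, the gene of the inhibitor p21, had 21.1 and 20.9 CPM in the empty vector libraries and 10.4 and 7.97 CPM in the Bach2 libraries (log2 fold change -1.18, SE 0.169, adjusted p = 0.00571; adjusted p up to 0.0451, without empty vector replicate 2). These 4 genes thus fell with no overlap, S100a4 and Cdkn1a whichever library was left out. Syce2, known from the synaptonemal complex of meiosis, had 15.1 and 16.1 CPM in the empty vector libraries and 6.73 and 8.21 CPM in the Bach2 libraries (log2 fold change -1.06, SE 0.231, adjusted p = 0.0312; adjusted p up to 0.192, without empty vector replicate 2). A further 5 genes among the 15 largest falls act in DNA replication and division: Orc1, Cdc6, Cenpk, Mybl2 and Chek1.

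**Figure D2:**
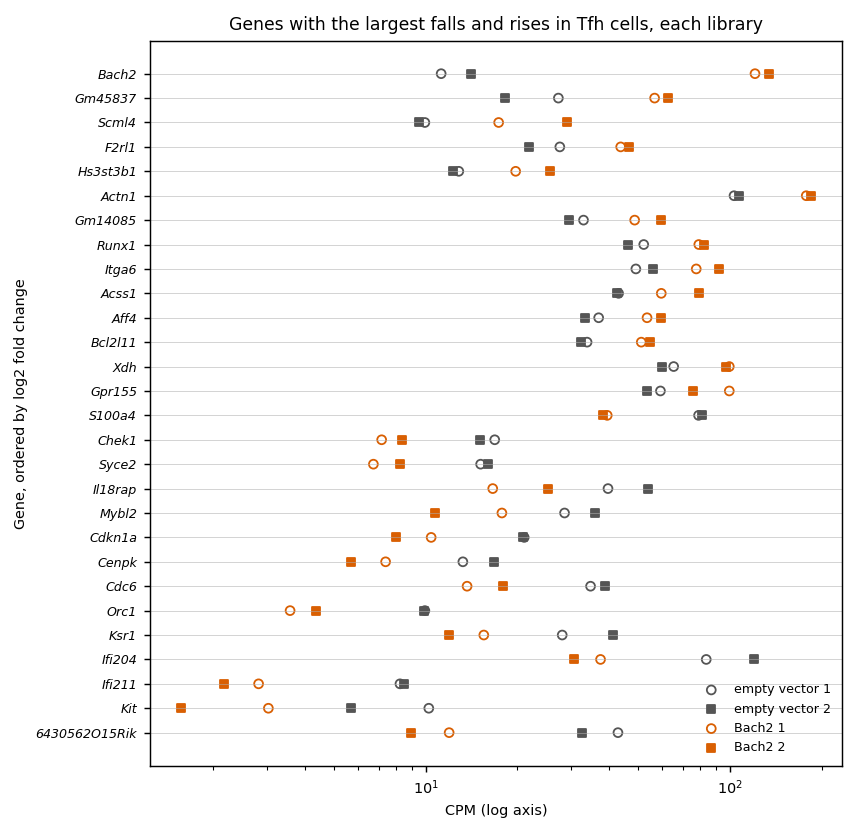
CPM (log axis) of Bach2, 13 of the 15 largest rises after it and 14 of the 15 largest falls among genes past the threshold, in each of the 4 Tfh libraries. Orange symbols are Bach2 libraries and grey symbols empty vector libraries; circles are replicate 1 and squares replicate 2. The 2 groups do not overlap in any gene shown, and the gap is widest for Bach2.

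Genes of DNA replication, mitosis and DNA repair made up 71 of the 133 genes that fell (53.4%). The 3 lists together held 213 tested genes, of which those 71 (33.3%) fell and 0 rose, against 1.16% of all tested genes downward. In bulk samples, fewer cycling cells and less of these RNAs per cell cannot be told apart, and this holds for every list below.

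DNA replication starts when the origin recognition complex and Cdc6 load the MCM helicase onto DNA. Of 71 tested replication genes, 25 fell and 0 rose, with a median log2 fold change of -0.49. In 61 of the 71 both Bach2 libraries were below both empty vector libraries, against 22.9% of all tested genes. Of the 22 tested genes of origin licensing and the helicase, 9 fell (median -0.53). Orc1, the largest subunit of the origin recognition complex, stood at 9.93 and 9.87 CPM in the empty vector libraries and 3.58 and 4.35 CPM in the Bach2 libraries (log2 fold change -1.32, SE 0.244, adjusted p = 0.0178; adjusted p up to 0.104, without empty vector replicate 2). Cdc6, the loader of the helicase, stood at 34.8 and 38.8 CPM in the empty vector libraries and 13.7 and 17.9 CPM in the Bach2 libraries (log2 fold change -1.22, SE 0.156, adjusted p = 0.00339; adjusted p up to 0.0284, without empty vector replicate 2). Mcm5, a helicase subunit, stood at 233 and 249 CPM in the empty vector libraries and 151 and 137 CPM in the Bach2 libraries (log2 fold change -0.74, SE 0.0871, adjusted p = 0.00183; adjusted p up to 0.0263, without Bach2 replicate 2). In these 3 genes the groups were well separated, and Cdc6 and Mcm5 kept their calls with any 1 library left out. Mcm10, a factor that activates the helicase, fell as well (28.2 and 32.9 against 16.4 and 14.1 CPM; log2 fold change -0.995, adjusted p = 0.00877). Mcm3 (log2 fold change -0.55, adjusted p = 0.00877) and Mcm2 (log2 fold change -0.51, adjusted p = 0.0103), further helicase subunits, fell by smaller amounts.

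Of the 25 tested genes of polymerases, clamp and ligase, 6 fell (median -0.50). Pcna, the sliding clamp, stood at 128 and 139 CPM in the empty vector libraries and 94.6 and 88.1 CPM in the Bach2 libraries (log2 fold change -0.54, SE 0.0920, adjusted p = 0.0114; adjusted p up to 0.115, without empty vector replicate 2). Lig1, the ligase that joins Okazaki fragments, stood at 89.7 and 114 CPM in the empty vector libraries and 65.5 and 53.0 CPM in the Bach2 libraries (log2 fold change -0.78, SE 0.133, adjusted p = 0.0129; adjusted p up to 0.129, without empty vector replicate 2). Both were lower in both Bach2 libraries. Clspn, a fork protein that relays checkpoint signals (log2 fold change -0.99, adjusted p = 0.0283), the clamp loader subunits Rfc4 (log2 fold change -0.68, adjusted p = 0.0195) and Rfc5 (log2 fold change -0.56, adjusted p = 0.0178), and Tipin, a fork protection factor (log2 fold change -0.47, adjusted p = 0.0435), also fell. Of 14 tested genes of nucleotide supply, 5 fell (median -0.30). Rrm2, the limiting subunit of ribonucleotide reductase, stood at 259.6 and 355 CPM in the empty vector libraries and 169 and 167 CPM in the Bach2 libraries (log2 fold change -0.87, SE 0.157, adjusted p = 0.0288; adjusted p up to 0.198, without Bach2 replicate 2). Its spread was large with empty vector, replicate 2 being the higher, and very small with Bach2. Tk1, thymidine kinase, showed the same arrangement (42.0 and 58.8 against 28.9 and 28.9 CPM; log2 fold change -0.80, adjusted p = 0.0188). Tyms, thymidylate synthase (log2 fold change -0.62, adjusted p = 0.0300), Rrm1, the large reductase subunit (log2 fold change -0.60, adjusted p = 0.0107), and Dctpp1, a nucleotide pyrophosphatase (log2 fold change -0.84, adjusted p = 0.0200), fell as well. Of 10 tested genes of chromatin assembly behind the fork, 5 fell (median -0.47). Uhrf1, which brings the maintenance methyltransferase to new DNA, stood at 72.1 and 82.9 CPM in the empty vector libraries and 45.7 and 47.3 CPM in the Bach2 libraries (log2 fold change -0.73, SE 0.105, adjusted p = 0.00571; adjusted p up to 0.0621, without empty vector replicate 2). Chaf1a, a subunit of the histone chaperone CAF-1 (log2 fold change -0.90, adjusted p = 0.00903), Asf1b, another histone chaperone (log2 fold change -0.67, adjusted p = 0.0201), Hells, a remodeller (log2 fold change -0.75, adjusted p = 0.0207), and H2afz, a histone variant (log2 fold change -0.46, adjusted p = 0.0201), also fell. The count of 25 was 2 without empty vector replicate 2, 3 without Bach2 replicate 2 and 16 without Bach2 replicate 1.

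The Mcm5 promoter is shown because Mcm5 was the replication gene with the smallest adjusted p that held an E2F motif, the kind of element known from genes of S phase. The window runs from 250 bases before to 50 bases after the RefSeq start on GRCm38.p6, chr8:75109259-75109558 on the plus strand, and is written 5′ to 3′. Capitals mark a pair of overlapping matches at positions -153 and -149 from the start.
Mcm5: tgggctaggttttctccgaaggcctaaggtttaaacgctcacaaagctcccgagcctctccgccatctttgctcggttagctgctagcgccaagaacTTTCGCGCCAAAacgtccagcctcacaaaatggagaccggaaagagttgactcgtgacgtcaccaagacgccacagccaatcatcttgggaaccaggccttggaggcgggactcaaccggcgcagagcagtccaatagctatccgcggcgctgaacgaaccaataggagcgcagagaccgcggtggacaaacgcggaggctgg
The E2F motif was searched as TTTCCCGC, TTTGGCGC or TTTCGCGC on either strand. It was present in 28.4% of 67 windows of the replication list, in 16.4% of 128 windows of the genes that fell, in 2.6% of 77 windows of the genes that rose, and in 3.64% of 11109 windows of all tested genes with an entry. Among 52 windows of genes that fell outside the cell cycle and repair lists it was present in 7.69%. Genes outside the lists still include Kntc1 of the kinetochore, so they are not free of division genes. A window could be matched for 8721 of the 11475 tested genes. A match is a run of letters and does not show binding.

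Mitosis genes held the largest number of falls of any list. Of 105 tested, 39 fell and 0 rose, with a median of -0.58. In 87 both Bach2 libraries were below both empty vector libraries, against 22.9% of all tested genes. Of 20 tested cyclins, kinases and phosphatases, 11 fell (median -0.64). Ccna2, cyclin A2, stood at 138 and 173 CPM in the empty vector libraries and 85.6 and 93.5 CPM in the Bach2 libraries (log2 fold change -0.79, SE 0.106, adjusted p = 0.00386; adjusted p up to 0.0434, without empty vector replicate 2). Ccnb1, cyclin B1, which starts mitosis with Cdk1, stood at 96.0 and 109.7 CPM in the empty vector libraries and 56.4 and 69.3 CPM in the Bach2 libraries (log2 fold change -0.71, SE 0.117, adjusted p = 0.0105; adjusted p up to 0.104, without empty vector replicate 2). Aurkb, the Aurora B kinase that corrects chromosome attachment, stood at 65.4 and 85.4 CPM in the empty vector libraries and 39.8 and 40.9 CPM in the Bach2 libraries (log2 fold change -0.90, SE 0.145, adjusted p = 0.0104; adjusted p up to 0.104, without empty vector replicate 2). Groups did not overlap for any of the 3, and Ccna2 alone of them kept its call with any 1 library left out. Aurka, Aurora A of the spindle poles (log2 fold change -0.78, adjusted p = 0.0178), Melk (log2 fold change -0.85, adjusted p = 0.0174) and Pbk (log2 fold change -0.81, adjusted p = 0.0178), kinases of dividing cells, fell by similar amounts.

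Of 27 tested kinetochore and centromere genes, 6 fell (median -0.61). Cenpk, part of the inner kinetochore, stood at 13.2 and 16.7 CPM in the empty vector libraries and 7.38 and 5.68 CPM in the Bach2 libraries, and its call was lost with each Tfh library left out (log2 fold change -1.19, SE 0.277, adjusted p = 0.0479; adjusted p up to 0.307, without empty vector replicate 2). Cenpn, which binds centromeric nucleosomes (log2 fold change -1.01, adjusted p = 0.0373), Spc25 (log2 fold change -0.94, adjusted p = 0.0304), Nuf2 (log2 fold change -0.87, adjusted p = 0.0201) and Spc24 (log2 fold change -0.70, adjusted p = 0.0255) of the microtubule-binding Ndc80 complex, and Ska3 (log2 fold change -0.88, adjusted p = 0.0278) made up the rest. Of 31 tested genes of the spindle, kinesins and cytokinesis, 11 fell (median -0.58). Kif2c, a kinesin that takes microtubules apart, stood at 48.2 and 56.7 CPM in the empty vector libraries and 28.6 and 30.6 CPM in the Bach2 libraries (log2 fold change -0.82, SE 0.147, adjusted p = 0.0174; adjusted p up to 0.131, without empty vector replicate 2). Tpx2, a spindle assembly factor, stood at 101 and 136 CPM in the empty vector libraries and 74.2 and 62.9 CPM in the Bach2 libraries (log2 fold change -0.79, SE 0.139, adjusted p = 0.0178; adjusted p up to 0.139, without Bach2 replicate 2). For both, empty vector replicate 2 was the highest library. Ckap2l (log2 fold change -0.75, adjusted p = 0.0174), Hmmr (log2 fold change -0.67, adjusted p = 0.0121), Kif15 (log2 fold change -0.62, adjusted p = 0.0178) and Tacc3 (log2 fold change -0.58, adjusted p = 0.0178), all of the spindle, also fell.

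Of 13 tested genes of the checkpoint, the passenger complex and mitotic exit, 7 fell (median -0.63). Birc5, survivin of the passenger complex, stood at 90.4 and 112 CPM in the empty vector libraries and 57.4 and 57.9 CPM in the Bach2 libraries (log2 fold change -0.81, SE 0.119, adjusted p = 0.00674; adjusted p up to 0.0677, without empty vector replicate 2). Ube2c, the ubiquitin-conjugating enzyme of the anaphase-promoting complex, stood at 93.5 and 115 CPM in the empty vector libraries and 60.9 and 57.4 CPM in the Bach2 libraries (log2 fold change -0.82, SE 0.130, adjusted p = 0.00990; adjusted p up to 0.103, without empty vector replicate 2). Bub1b, a checkpoint kinase-like protein, stood at 93.0 and 110.1 CPM in the empty vector libraries and 58.2 and 64.5 CPM in the Bach2 libraries (log2 fold change -0.73, SE 0.116, adjusted p = 0.00990; adjusted p up to 0.103, without empty vector replicate 2). All 3 were lower in both Bach2 libraries. Cks1b (log2 fold change -0.67, adjusted p = 0.0178) and Cks2 (log2 fold change -0.67, adjusted p = 0.0198), small partners of the cyclin-dependent kinases, and Cdca8, borealin of the passenger complex (log2 fold change -0.63, adjusted p = 0.0257), fell too. Of 14 tested condensins, topoisomerases and proliferation marks, 4 fell (median -0.43): the condensin subunits Ncapg2 (log2 fold change -0.75, adjusted p = 0.0107), Ncaph (log2 fold change -0.74, adjusted p = 0.0178) and Ncapg (log2 fold change -0.57, adjusted p = 0.0248), and the tubulin Tubb5 (log2 fold change -0.49, adjusted p = 0.0109). Mki67, the Ki-67 proliferation marker, did not pass the test, at 171 and 203 CPM in the empty vector libraries and 133 and 147 CPM in the Bach2 libraries (log2 fold change -0.42, SE 0.108, adjusted p = 0.0709), but passed it without empty vector replicate 1 (adjusted p = 0.0351) and with DESeq2 (adjusted p = 0.0319). The count of 39 was 1 without empty vector replicate 2, 8 without Bach2 replicate 2 and 23 without Bach2 replicate 1.

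The Ube2c promoter is shown for the cell cycle homology region (CHR), an element known from genes of late cell cycle stages, since Ube2c was the mitosis gene with the smallest adjusted p that held it. The RefSeq window is chr2:164769679-164769978 on GRCm38.p6, plus strand, written 5′ to 3′, and capitals mark the CHR match at position -29 from the start.
Ube2c: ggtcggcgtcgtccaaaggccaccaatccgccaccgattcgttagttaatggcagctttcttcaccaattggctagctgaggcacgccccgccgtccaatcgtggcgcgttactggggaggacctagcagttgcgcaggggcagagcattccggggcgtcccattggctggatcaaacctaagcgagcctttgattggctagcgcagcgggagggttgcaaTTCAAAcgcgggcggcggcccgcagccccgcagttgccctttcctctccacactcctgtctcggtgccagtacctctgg
The CHR was searched as TTTGAA or TTCGAA on either strand. It was present in 64.3% of 98 windows of the mitosis list, in 22.4% of the replication windows, in 30.5% of the windows of genes that fell, in 19.5% of those of genes that rose, and in 14% of all windows. CCAAT, the box bound by NF-Y, was present in 71.4% of mitosis windows, 53.7% of replication windows, 57% of windows of genes that fell, 35.1% of windows of genes that rose, and 38.2% of all windows. In the 52 windows of genes that fell outside the cell cycle and repair lists, the CHR was present in 17.3% and CCAAT in 48.1%.

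Summed over a list, the same direction was seen in every Tfh library. The 105 mitosis genes summed to 7629 and 8958 CPM in the empty vector libraries and 6262 and 6484 CPM in the Bach2 libraries, a change of -23.2%. The 71 replication genes summed to 6914 and 7560 CPM in the empty vector libraries and 5866 and 5511 CPM in the Bach2 libraries, a change of -21.4%. Both Bach2 sums were below both empty vector sums in each list. The 37 repair genes summed to 1345 and 1343 CPM in the empty vector libraries and 1095 and 1084 CPM in the Bach2 libraries, a change of -18.9%. In non-Tfh cells the changes in these sums were -5.85% for mitosis, -7.58% for replication and -3.16% for repair. Such sums follow the most abundant members.

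**Figure D3:**
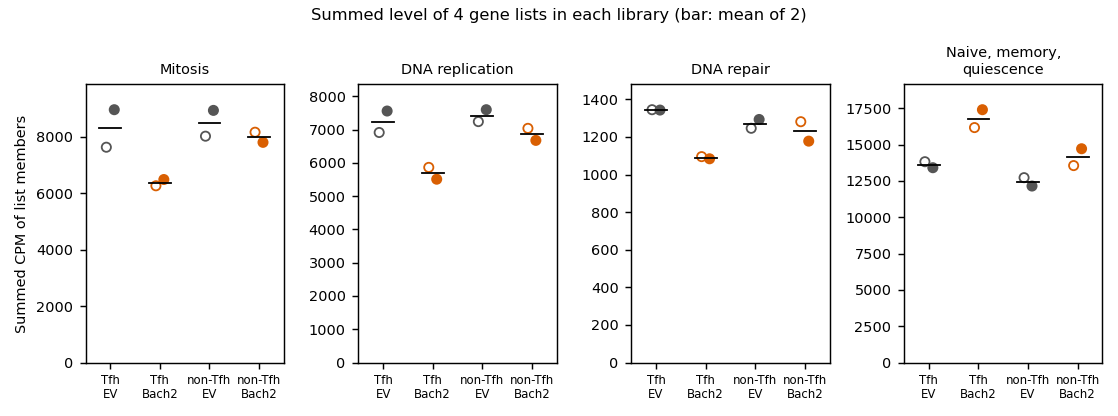
Summed CPM (linear axis from 0) of the mitosis, DNA replication, DNA repair and naive, memory and quiescence lists in each of the 8 libraries, without Bach2. Open circles are replicate 1, filled circles replicate 2 and bars the mean of 2. In Tfh cells the Bach2 sums lie below the empty vector sums in the first 3 panels and above them in the last.

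DNA repair genes had falls and no rises. Of 37 tested, 7 fell (18.9%, against 1.16% of all tested genes downward) and 0 rose (median -0.52). Chek1, the kinase of the replication checkpoint, stood at 16.9 and 15.1 CPM in the empty vector libraries and 7.16 and 8.33 CPM in the Bach2 libraries (log2 fold change -1.05, SE 0.193, adjusted p = 0.0178; adjusted p up to 0.0889, without empty vector replicate 2). Brca1, a gene of homologous recombination, stood at 21.0 and 27.3 CPM in the empty vector libraries and 13.3 and 13.2 CPM in the Bach2 libraries (log2 fold change -0.86, SE 0.185, adjusted p = 0.0304; adjusted p up to 0.298, without empty vector replicate 2). Both Bach2 libraries were lower in both genes. Fancd2 of the Fanconi pathway (log2 fold change -0.98, adjusted p = 0.0178), Rad54l (log2 fold change -0.89, adjusted p = 0.0201), Fignl1 (log2 fold change -0.84, adjusted p = 0.0104) and Atad5 (log2 fold change -0.81, adjusted p = 0.0324) also fell. The count of 7 was 0 without empty vector replicate 2 or Bach2 replicate 2, and 2 without Bach2 replicate 1.

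Cell cycle control genes had calls in both directions. Of 45 tested, 6 fell and 2 rose (median -0.15), 17.8% of the list against 1.71% of all tested genes. Mybl2, the B-Myb factor of late cell cycle genes, stood at 28.6 and 36.1 CPM in the empty vector libraries and 17.8 and 10.8 CPM in the Bach2 libraries (log2 fold change -1.17, SE 0.218, adjusted p = 0.0201; adjusted p up to 0.176, without empty vector replicate 2). Ccne2 (23.8 and 31.0 against 12.5 and 14.1 CPM; log2 fold change -1.04, adjusted p = 0.0174) and Ccne1 (54.4 and 60.2 against 38.2 and 38.5 CPM; log2 fold change -0.58, adjusted p = 0.0227), the E cyclins that open S phase, E2f8, a repressive E2F (log2 fold change -0.80, adjusted p = 0.0178), and Tfdp1, the partner of E2F factors (log2 fold change -0.39, adjusted p = 0.0435), fell. All of these were lower in both Bach2 libraries. Among 14 tested inhibitors of division the median was 0.14, and 11 were positive. Btg1, an antiproliferative gene of resting lymphocytes, stood at 537 and 546 CPM in the empty vector libraries and 739 and 785 CPM in the Bach2 libraries (log2 fold change 0.49, SE 0.0768, adjusted p = 0.00919; adjusted p up to 0.0621, without empty vector replicate 2). Its relative Btg2 stood at 269 and 267 CPM in the empty vector libraries and 349 and 335 CPM in the Bach2 libraries (log2 fold change 0.35, SE 0.0808, adjusted p = 0.0435; adjusted p up to 0.250, without empty vector replicate 2). Both rose, with Bach2 libraries above all empty vector libraries, whereas the inhibitor Cdkn1a fell. Without empty vector replicate 2, and likewise without Bach2 replicate 2, 1 of the 45 genes fell and 0 rose.

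Genes of naive, memory and quiescent T cells had rises and no falls. Of 44 tested, 8 rose and 0 fell, Bach2 itself, which the vector carries, included, against 0.549% of all tested genes upward. The median was 0.32, and in 29 both Bach2 libraries lay above both empty vector libraries, against 21.7% of all tested genes. Lef1, a partner of Tcf7 in T cell identity, stood at 308 and 323 CPM in the empty vector libraries and 472 and 441 CPM in the Bach2 libraries (log2 fold change 0.53, SE 0.0900, adjusted p = 0.0112; adjusted p up to 0.0703, without empty vector replicate 2). Foxp1, a keeper of T cell quiescence, stood at 129 and 137 CPM in the empty vector libraries and 193 and 205 CPM in the Bach2 libraries (log2 fold change 0.59, SE 0.0836, adjusted p = 0.00571; adjusted p up to 0.0434, without empty vector replicate 2). Foxo1, which drives homing and survival genes, stood at 212 and 215 CPM in the empty vector libraries and 296 and 277 CPM in the Bach2 libraries (log2 fold change 0.42, SE 0.0778, adjusted p = 0.0178; adjusted p up to 0.112, without empty vector replicate 2). All 3 rose without overlap. The Foxp1 call held whichever Tfh library was left out, and the Foxo1 call was lost with each of the 4 left out. Runx1, a Runt factor high in naive cells, had 52.1 and 46.1 CPM in the empty vector libraries and 79.0 and 82.0 CPM in the Bach2 libraries (log2 fold change 0.71, SE 0.117, adjusted p = 0.0104; adjusted p up to 0.107, without empty vector replicate 2). Klf3, a Kruppel-like factor, had 101 and 97.4 CPM in the empty vector libraries and 129 and 166 CPM in the Bach2 libraries (log2 fold change 0.57, SE 0.114, adjusted p = 0.0223; adjusted p up to 0.178, without Bach2 replicate 2). Itga6, the integrin alpha 6 chain, had 49.1 and 55.7 CPM in the empty vector libraries and 77.5 and 92.3 CPM in the Bach2 libraries (log2 fold change 0.70, SE 0.132, adjusted p = 0.0178; adjusted p up to 0.131, without Bach2 replicate 2). These 3 also rose with no overlap, as did Actn1, described above.

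Several homing genes of the same list were higher with Bach2 but did not pass. Klf2, the factor that drives lymph node exit, stood at 187 and 301 CPM in the empty vector libraries and 362 and 443 CPM in the Bach2 libraries (log2 fold change 0.72, SE 0.292, adjusted p = 0.322). Its target S1pr1, the exit receptor, stood at 470.1 and 593 CPM in the empty vector libraries and 682 and 925 CPM in the Bach2 libraries (log2 fold change 0.60, SE 0.166, adjusted p = 0.125). Ccr7, the chemokine receptor of the T cell zone, stood at 114 and 165 CPM in the empty vector libraries and 198 and 289 CPM in the Bach2 libraries (log2 fold change 0.80, SE 0.218, adjusted p = 0.141). In these 3 genes the groups did not overlap, yet replicate 2 was well above replicate 1 with either vector. Tcf7, the TCF-1 factor (2721 and 2459 against 3211 and 2952 CPM; log2 fold change 0.25, adjusted p = 0.188), and Id3, an inhibitor of E proteins (318 and 343 against 438 and 413 CPM; log2 fold change 0.37, adjusted p = 0.0667), had higher values in both Bach2 libraries and did not pass. Il7r, the IL-7 receptor (22.5 and 31.3 against 22.6 and 40.1 CPM; log2 fold change 0.23, adjusted p = 0.814), and Satb1, a chromatin organizer (347 and 413 against 383 and 568 CPM; log2 fold change 0.32, adjusted p = 0.468), overlapped. Without Bach2 the other 43 genes of the list summed to 13826 and 13414 CPM in the empty vector libraries and 16176 and 17408 CPM in the Bach2 libraries, a change of 23.3% (13.7% in non-Tfh cells). Over the 44 genes the median log2 fold change was 0.32 in Tfh and 0.28 in non-Tfh cells. In non-Tfh cells 3 of them rose, Bach2 included, and 0 fell. The count of 8 was 3 without empty vector replicate 2, 4 without Bach2 replicate 2, 13 without Bach2 replicate 1 and 6 without empty vector replicate 1.

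**Figure D4:**
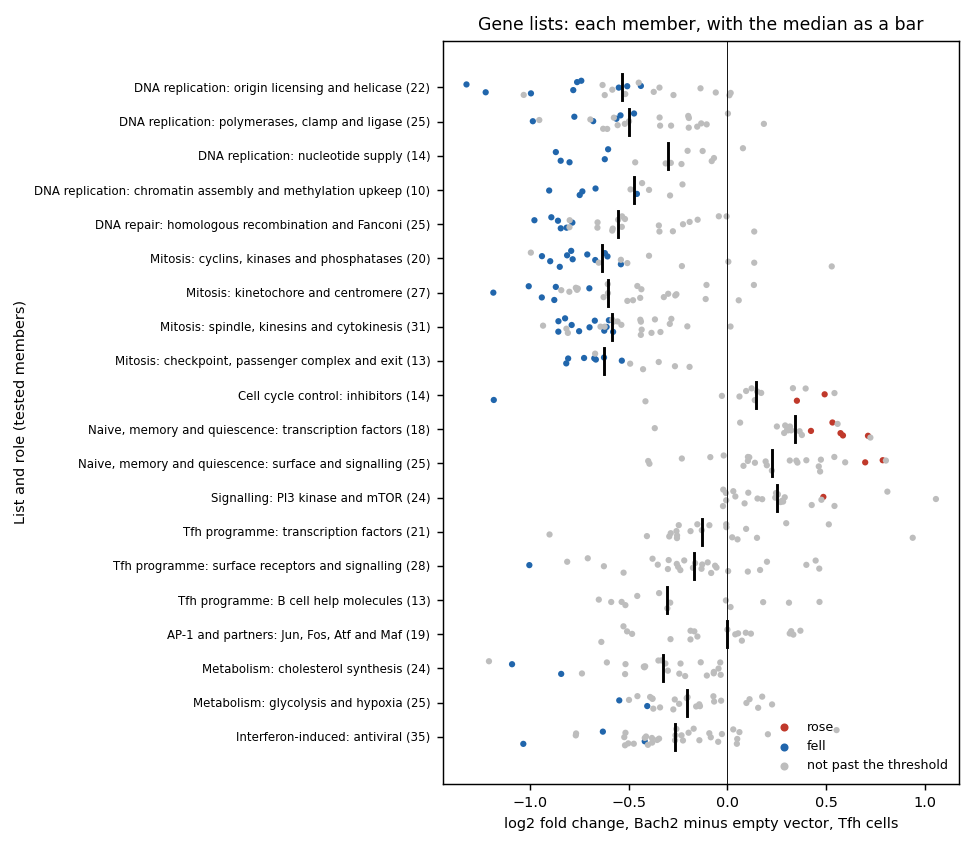
Log2 fold change of Bach2 minus empty vector in Tfh cells for each tested member of 20 list roles, with the number of members in brackets and the median as a bar. Blue points fell, red points rose and grey points did not pass the threshold. The naive transcription factor role is drawn without Bach2, and the medians of the replication, repair and mitosis roles all lie below 0.

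The Tfh programme list had 1 call among 62 tested genes (1.61%), near the share over all tested genes (1.71%). Tigit, an inhibitory receptor that competes for the ligands of CD226, stood at 403 and 351 CPM in the empty vector libraries and 198 and 179 CPM in the Bach2 libraries. Both Bach2 libraries were far below both empty vector libraries (log2 fold change -1.003, SE 0.115, adjusted p = 0.00183; adjusted p up to 0.0276, without Bach2 replicate 2). The median over the 62 genes was -0.17 and 44 were negative. Cxcr5, the follicle-homing receptor used in the sort, stood at 815 and 694 CPM in the empty vector libraries and 648 and 577 CPM in the Bach2 libraries (log2 fold change -0.30, SE 0.182, adjusted p = 0.483). Pdcd1, which encodes PD-1 and was also used in the sort, stood at 659 and 454 CPM in the empty vector libraries and 613 and 381 CPM in the Bach2 libraries (log2 fold change -0.16, SE 0.319, adjusted p = 0.863). Replicates of 1 vector differed more than the vectors did for Pdcd1, and neither gene passed. Cells were gated on both proteins, and the part of the gate in these levels was not tested.

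Bcl6, the lineage factor of Tfh cells, stood at 159 and 135 CPM in the empty vector libraries and 119.9 and 102 CPM in the Bach2 libraries (log2 fold change -0.41, SE 0.123, adjusted p = 0.114). Both Bach2 libraries were lower and the test was not passed. Maf, which supports IL-21 production (199.5 and 199 against 183 and 167 CPM; log2 fold change -0.19, adjusted p = 0.418), Ascl2, a factor of Tfh positioning (6.52 and 3.16 against 3.04 and 2.17 CPM; log2 fold change -0.90, adjusted p = 0.380), and Tox2 (473 and 364 against 394 and 311 CPM; log2 fold change -0.25, adjusted p = 0.663) did not pass either. Among 13 tested B cell help molecules 0 passed, against 1.71% of all tested genes, and so short a list cannot be told from that share. Il21, the main Tfh cytokine, stood at 394 and 297 CPM in the empty vector libraries and 233 and 207 CPM in the Bach2 libraries (log2 fold change -0.65, SE 0.215, adjusted p = 0.208). Il4 stood at 14.1 and 10.1 CPM in the empty vector libraries and 11.6 and 4.47 CPM in the Bach2 libraries (log2 fold change -0.59, SE 0.369, adjusted p = 0.477). Cd40lg, the CD40 ligand, stood at 213 and 191 CPM in the empty vector libraries and 182 and 145 CPM in the Bach2 libraries (log2 fold change -0.30, SE 0.108, adjusted p = 0.179). Il21 and Cd40lg were lower in both Bach2 libraries and Il4 overlapped. Icos (585 and 747 against 542 and 586 CPM; log2 fold change -0.24, adjusted p = 0.278) and S1pr2, a receptor that confines cells to the follicle (84.1 and 55.3 against 68.0 and 49.4 CPM; log2 fold change -0.25, adjusted p = 0.597), overlapped too. Without Bach2 replicate 1, 5 of the 62 genes fell, and without either empty vector library, 2 fell.

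Effector genes had 4 calls among 77 tested (5.19%, against 1.71% of all tested genes). Of these, 3 fell and 1 rose (median over the 77 -0.29, 51 negative): S100a4, Il18rap and Tnfrsf9 fell and Gata3 rose. Tnfrsf9, the costimulatory receptor 4-1BB, stood at 85.7 and 86.6 CPM in the empty vector libraries and 61.0 and 52.3 CPM in the Bach2 libraries (log2 fold change -0.60, SE 0.130, adjusted p = 0.0302; adjusted p up to 0.201, without Bach2 replicate 2). Gata3, the factor of T helper type 2 cells, stood at 84.6 and 76.2 CPM in the empty vector libraries and 118 and 101 CPM in the Bach2 libraries (log2 fold change 0.45, SE 0.104, adjusted p = 0.0465; adjusted p up to 0.337, without empty vector replicate 2). Groups did not overlap for either, and the Gata3 call was lost with each Tfh library left out. Ifng, interferon gamma, stood at 19.4 and 18.1 CPM in the empty vector libraries and 7.60 and 13.5 CPM in the Bach2 libraries and did not pass (log2 fold change -0.84, SE 0.238, adjusted p = 0.106). Prdm1, which encodes Blimp-1, stood at a low level of 2.41 and 2.91 CPM in the empty vector libraries and 3.04 and 1.69 CPM in the Bach2 libraries (log2 fold change -0.14, adjusted p = 0.896). Tbx21, T-bet of type 1 helper cells (46.2 and 71.2 against 50.3 and 65.8 CPM; log2 fold change -0.01, adjusted p = 0.989), Id2 (58.8 and 82.8 against 66.0 and 98.7 CPM; log2 fold change 0.22, adjusted p = 0.783), Il2ra, the IL-2 receptor alpha chain (9.03 and 7.09 against 4.56 and 6.52 CPM; log2 fold change -0.56, adjusted p = 0.208), and Rora (61.1 and 58.6 against 57.9 and 40.0 CPM; log2 fold change -0.29, adjusted p = 0.564) did not pass. The count of falls in this list was 7 without empty vector replicate 1, 1 without empty vector replicate 2 and 6 without Bach2 replicate 2, with 0 rises in each case.

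A list of genes reported as repressed by Bach2 in T cells held 29 tested members. Of these, 4 fell and 1 rose (median -0.52, 25 negative), 17.2% of the list against 1.71% of all tested genes. In 20 both Bach2 libraries were below both empty vector libraries, against 22.9% of all tested genes. The 4 were Tigit, S100a4, Cdkn1a and Tnfrsf9, and the gene that rose was Gata3. In non-Tfh cells, 9 of the 29 fell (median -0.67), against 0.619% of all tested genes there. The list was compiled from general knowledge with results of these libraries known, so it is not independent evidence of its direction. Among 29 tested AP-1 factors and partners 0 passed in Tfh cells (median -0.02), against 1.71% of all tested genes. In non-Tfh cells 5 of them fell, against 0.619% of all tested genes. Batf, the AP-1 factor of Tfh and Th17 cells (163 and 141 against 133 and 141 CPM; log2 fold change -0.15, adjusted p = 0.459), and Irf4, its partner (44.5 and 44.0 against 39.9 and 58.6 CPM; log2 fold change 0.15, adjusted p = 0.694), were among those that did not pass. The proximal and early T cell receptor genes, 53 tested, had 1 rise and 1 fall (3.77%, against 1.71% of all tested genes, median 0.03). The rise was Rasgrp1, which activates Ras downstream of the receptor, at 248 and 234 CPM in the empty vector libraries and 323 and 355 CPM in the Bach2 libraries (log2 fold change 0.49, SE 0.0825, adjusted p = 0.0109; adjusted p up to 0.107, without empty vector replicate 2), and the fall was Tnfrsf9.

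Promoters were searched for TGANTCA, the core of AP-1 and Bach sites, which reads the same on both strands. It was present in 5 of 128 windows of the genes that fell (3.91%), in 0 of 77 windows of the genes that rose, and in 4.69% of all 11109 windows. Among 52 windows of genes that fell outside the cell cycle and repair lists it was present in 4 (7.69%), and among 25 windows of the reported Bach2-repressed list in 4 (16%). The genes that fell and held TGANTCA were Ksr1, Ncapg2, Frmd4b, Prdx1 and Tnfrsf9. The windows of the first 3 by adjusted p are shown, with the motif in capitals, from RefSeq on GRCm38.p6 and 5′ to 3′ on the gene's strand: Ksr1 at chr11:79059787-79060086 (minus), Ncapg2 at chr12:116405186-116405485 (plus) and Frmd4b at chr6:97459237-97459536 (minus). For Ksr1 and Frmd4b RefSeq has 2 and 3 windows, and the one shown is at an internal start, 86.6 kb and 158 kb downstream of the gene's first base in GENCODE. Which start these cells use was not tested.
Ksr1: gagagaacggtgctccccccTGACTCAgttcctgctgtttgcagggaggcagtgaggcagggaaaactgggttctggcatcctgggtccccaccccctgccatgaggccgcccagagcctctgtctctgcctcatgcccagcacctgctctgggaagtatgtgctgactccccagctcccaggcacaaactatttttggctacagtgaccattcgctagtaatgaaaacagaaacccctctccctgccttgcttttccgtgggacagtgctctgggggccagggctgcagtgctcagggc
Ncapg2: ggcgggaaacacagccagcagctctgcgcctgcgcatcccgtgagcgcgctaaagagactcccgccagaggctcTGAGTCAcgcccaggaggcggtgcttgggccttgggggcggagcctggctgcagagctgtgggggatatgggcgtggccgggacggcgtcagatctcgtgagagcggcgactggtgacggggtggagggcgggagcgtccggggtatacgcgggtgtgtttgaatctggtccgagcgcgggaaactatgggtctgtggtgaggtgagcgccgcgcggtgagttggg
Frmd4b: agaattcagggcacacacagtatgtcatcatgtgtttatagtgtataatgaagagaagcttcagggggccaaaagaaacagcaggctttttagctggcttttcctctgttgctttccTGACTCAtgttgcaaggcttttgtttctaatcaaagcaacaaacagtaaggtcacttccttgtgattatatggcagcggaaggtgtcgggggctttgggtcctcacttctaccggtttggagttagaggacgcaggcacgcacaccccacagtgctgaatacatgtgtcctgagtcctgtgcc
The matches lie at positions -230, -176 and -133 from the respective starts. Absence of the letters says only that they are not in a window, and enhancers were not searched.

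Signalling genes had 3 rises and 3 falls among 88 tested (6.82%, against 1.71% of all tested genes, median 0.09). Jak1, the kinase of many cytokine receptors, stood at 1461 and 1387 CPM in the empty vector libraries and 1734 and 1824 CPM in the Bach2 libraries (log2 fold change 0.32, SE 0.0752, adjusted p = 0.0479; adjusted p up to 0.315, without empty vector replicate 2). Rictor, the defining subunit of mTOR complex 2, stood at 89.3 and 95.9 CPM in the empty vector libraries and 119 and 140.0 CPM in the Bach2 libraries (log2 fold change 0.49, SE 0.103, adjusted p = 0.0283; adjusted p up to 0.201, without Bach2 replicate 2). Rasa1, a Ras GTPase-activating protein, stood at 192 and 201 CPM in the empty vector libraries and 249 and 288 CPM in the Bach2 libraries (log2 fold change 0.45, SE 0.102, adjusted p = 0.0379; adjusted p up to 0.256, without Bach2 replicate 2). These were the rises. Socs1, an inhibitor of JAK signalling, stood at 126 and 129 CPM in the empty vector libraries and 82.9 and 84.8 CPM in the Bach2 libraries and fell (log2 fold change -0.60, SE 0.116, adjusted p = 0.0198; adjusted p up to 0.139, without empty vector replicate 2), as did Ksr1 and Il18rap. Of 24 tested PI3 kinase and mTOR genes, 1 rose and 20 were positive (median 0.25). Without empty vector replicate 2, 0 of the 88 passed in either direction, and without Bach2 replicate 1, 8 rose and 2 fell. Costimulatory and inhibitory receptors had 2 falls, Tigit and Tnfrsf9, and 1 rise among 35 tested (median -0.10). That is 8.57% of the list, against 1.71% of all tested genes. The rise was Cd96, a receptor of the Tigit family, at 140.0 and 125 CPM in the empty vector libraries and 176 and 174 CPM in the Bach2 libraries (log2 fold change 0.40, SE 0.0889, adjusted p = 0.0343; adjusted p up to 0.314, without empty vector replicate 2). Migration and adhesion genes had 2 rises, F2rl1 and Itga6, among 44 tested (4.55%, against 1.71% of all tested genes, median 0.03). There were 8 rises without Bach2 replicate 1, 1 rise and 1 fall without empty vector replicate 1, and 0 calls without replicate 2 of either vector.

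Metabolic genes had more falls than rises. Of 83 tested, 7 fell and 2 rose (median -0.20, 63 negative), 10.8% of the list against 1.71% of all tested genes. All 24 tested cholesterol genes were negative (median -0.32), and 2 fell. Idi1, an isomerase of the pathway, stood at 31.1 and 32.4 CPM in the empty vector libraries and 16.8 and 18.6 CPM in the Bach2 libraries (log2 fold change -0.84, SE 0.133, adjusted p = 0.00963; adjusted p up to 0.0703, without empty vector replicate 2). Pgk1, a glycolytic kinase, stood at 177 and 171 CPM in the empty vector libraries and 124 and 114 CPM in the Bach2 libraries (log2 fold change -0.55, SE 0.0843, adjusted p = 0.00882; adjusted p up to 0.0699, without Bach2 replicate 2). Gapdh, the next enzyme before it, stood at 1005 and 987 CPM in the empty vector libraries and 805 and 698 CPM in the Bach2 libraries (log2 fold change -0.41, SE 0.0829, adjusted p = 0.0245; adjusted p up to 0.184, without Bach2 replicate 2). Both glycolytic genes were lower in both Bach2 libraries. Phgdh (144 and 158 against 115 and 103 CPM; log2 fold change -0.47, adjusted p = 0.0245) and Psat1 (141 and 155 against 114 and 101 CPM; log2 fold change -0.46, adjusted p = 0.0378), enzymes of serine synthesis, and Odc1, the first enzyme of polyamine synthesis (155 and 145 against 108 and 108 CPM; log2 fold change -0.47, adjusted p = 0.0201), fell. The 2 rises were Xdh and Acss1. Myc, a driver of many of these genes, overlapped at 23.1 and 26.6 CPM in the empty vector libraries and 19.2 and 29.4 CPM in the Bach2 libraries (log2 fold change -0.03, adjusted p = 0.951). Of the 83 genes, 2 fell and 0 rose without empty vector replicate 2, and without Bach2 replicate 2, 1 fell and 1 rose.

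Interferon-induced genes had 5 falls and 0 rises among 58 tested (8.62%, against 1.71% of all tested genes, median -0.18). Besides Ifi204 and Ifi211 these were Oasl2, an antiviral protein, at 33.0 and 41.1 CPM in the empty vector libraries and 20.2 and 15.8 CPM in the Bach2 libraries (log2 fold change -1.03, SE 0.174, adjusted p = 0.0110; adjusted p up to 0.107, without empty vector replicate 2), Isg20, an antiviral exonuclease, at 90.6 and 103 CPM in the empty vector libraries and 64.1 and 60.9 CPM in the Bach2 libraries (log2 fold change -0.63, SE 0.133, adjusted p = 0.0283; adjusted p up to 0.240, without empty vector replicate 2), and Ly6a, the Sca-1 surface protein, at 1202 and 1249 CPM in the empty vector libraries and 955 and 878 CPM in the Bach2 libraries (log2 fold change -0.42, SE 0.0786, adjusted p = 0.0178; adjusted p up to 0.131, without empty vector replicate 2). Groups did not overlap in any of them. Among 35 tested antiviral genes 29 were negative (median -0.27), while among 23 genes of the p200 family, GTPases and antigen presentation 13 were positive (median 0.06). The count of 5 was 1 without empty vector replicate 2 or Bach2 replicate 2, and without Bach2 replicate 1, 9 fell. Of 18 tested heme and oxidative stress genes 1 fell, Prdx1, a peroxidase, at 622 and 673 CPM in the empty vector libraries and 503 and 457 CPM in the Bach2 libraries (log2 fold change -0.43, SE 0.0829, adjusted p = 0.0195; adjusted p up to 0.168, without empty vector replicate 2). Of 26 survival and death genes 1 rose, Bcl2l11. Of 35 chromatin genes Scml4 rose and Hmgn2, a nucleosome-binding protein, fell (281 and 341 against 222 and 208 CPM; log2 fold change -0.53, adjusted p = 0.0245). Calls made up 5.56% of the heme list, 3.85% of the survival list and 5.71% of the chromatin list, against 1.71% of all tested genes.

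Of the 196 genes past the threshold, 78 were in no list. Pde4b, a phosphodiesterase that degrades cyclic AMP, stood at 123 and 128 CPM in the empty vector libraries and 190.2 and 187 CPM in the Bach2 libraries (log2 fold change 0.59, SE 0.0869, adjusted p = 0.00674; adjusted p up to 0.0486, without empty vector replicate 2). Its rise held with each library left out. Map2k3, a kinase that activates p38, stood at 201 and 204 CPM in the empty vector libraries and 129 and 101 CPM in the Bach2 libraries and fell (log2 fold change -0.81, SE 0.110, adjusted p = 0.00450; adjusted p up to 0.0451, without empty vector replicate 2). ENSMUSG00000091747 stood at 232 and 266 CPM in the empty vector libraries and 147 and 139.9 CPM in the Bach2 libraries and fell (log2 fold change -0.79, SE 0.0873, adjusted p = 0.00125; adjusted p up to 0.0222, without Bach2 replicate 2). The last 2 were also stable to leaving out any library. Frmd4b, of which an internal promoter window is shown above, stood at 96.1 and 81.4 CPM in the empty vector libraries and 54.0 and 56.4 CPM in the Bach2 libraries (log2 fold change -0.69, SE 0.129, adjusted p = 0.0178; adjusted p up to 0.0961, without Bach2 replicate 2). Lpxn, the paxillin relative leupaxin, stood at 277 and 297 CPM in the empty vector libraries and 225 and 197 CPM in the Bach2 libraries (log2 fold change -0.44, SE 0.0891, adjusted p = 0.0234; adjusted p up to 0.191, without empty vector replicate 2). Smim3, a small membrane protein, stood at 24.8 and 23.9 CPM in the empty vector libraries and 11.6 and 13.6 CPM in the Bach2 libraries (log2 fold change -0.95, SE 0.192, adjusted p = 0.0238; adjusted p up to 0.140, without empty vector replicate 2). These 3 fell without overlap. Others that fell were Kntc1 of the kinetochore (log2 fold change -0.96, adjusted p = 0.0178), Cdca3 (log2 fold change -0.79, adjusted p = 0.0198), Shcbp1 (log2 fold change -0.72, adjusted p = 0.0192), the nuclear import factor Kpna2 (log2 fold change -0.64, adjusted p = 0.0105), the histone acetyltransferase Hat1 (log2 fold change -0.55, adjusted p = 0.0178) and Cdca7 (log2 fold change -0.51, adjusted p = 0.0210).

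Among the rises in no list, Ipcef1 stood at 111 and 110.3 CPM in the empty vector libraries and 171 and 147 CPM in the Bach2 libraries (log2 fold change 0.52, SE 0.0983, adjusted p = 0.0178; adjusted p up to 0.133, without empty vector replicate 2). Stk38, a kinase of the NDR family, stood at 207 and 243 CPM in the empty vector libraries and 297 and 337 CPM in the Bach2 libraries (log2 fold change 0.49, SE 0.0960, adjusted p = 0.0198; adjusted p up to 0.152, without Bach2 replicate 2). Gramd1a, a sterol transfer protein, stood at 197 and 203 CPM in the empty vector libraries and 258 and 298 CPM in the Bach2 libraries (log2 fold change 0.47, SE 0.0875, adjusted p = 0.0178; adjusted p up to 0.142, without Bach2 replicate 2). The 3 rose without overlap. Znrf1, a ubiquitin ligase (log2 fold change 0.56, adjusted p = 0.0178), Fam53b (log2 fold change 0.53, adjusted p = 0.0178), Tcp11l2 (log2 fold change 0.43, adjusted p = 0.0178), Ubac2 (log2 fold change 0.44, adjusted p = 0.0178) and the transcript 4930523C07Rik (log2 fold change 0.51, adjusted p = 0.0201) also rose.

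The vector effect in Tfh cells was set beside that in non-Tfh cells, which shares no library with it. Deviations from the group means correlated at 0.208 over genes between the same-numbered Tfh and non-Tfh libraries with empty vector and at 0.24 with Bach2, and the labels do not say whether these were sorted from the same cells, so the cell types may not be independent. In non-Tfh cells 29 genes rose and 71 fell (0.871% of the genes tested). The 2 sets shared 12 genes upward, 19% of the Tfh set and 41.4% of the non-Tfh set, among them Bach2, Btg1, Lef1, Scml4, Xdh and Gramd1a. They shared 16 downward, 12% and 22.5%, among them 6430562O15Rik, Cdkn1a, Ifi204, S100a4, Tigit, Tnfrsf9, Map2k3, Ly6a, Oasl2, Prdx1, Lpxn and Frmd4b. No gene was past the threshold in opposite directions. Of the Tfh genes, 62 of 63 that rose and 128 of 133 that fell had the same sign in non-Tfh cells. Their medians there were 0.29 and -0.21, against 0.000724 over all tested genes. The share of all tested genes with the same sign in both cell types is not given here.

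The test of the difference between the cell types called 0 of 11475 genes (0%) with edgeR, 539 at an unadjusted p below 0.05 (4.7%), and 4 with DESeq2. The smallest edgeR adjusted p was 0.131, for Tigit. In non-Tfh cells Tigit stood at 72.8 and 55.3 CPM in the empty vector libraries and 12.9 and 13.6 CPM in the Bach2 libraries (log2 fold change -2.27, adjusted p = 4.17e-06), so its fall on the log2 scale was larger there (difference 1.27, unadjusted p = 1.16e-05, adjusted p = 0.131, edgeR; difference 1.28, adjusted p = 1.71e-05, DESeq2). The other 3 DESeq2 calls, named for that test alone, were B4galnt4 (1.18), Lag3 (1.09) and Tnfrsf26 (0.83), each a more positive effect in Tfh cells. Ksr1 in non-Tfh cells stood at 13.3 and 14.4 CPM in the empty vector libraries and 14.3 and 11.5 CPM in the Bach2 libraries, and the difference did not pass (difference -1.23, unadjusted p = 0.00135, adjusted p = 0.657).

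In the mitosis, replication and repair lists 0 genes passed in non-Tfh cells, against 0.871% of all tested genes there. The list medians there were -0.13, -0.10 and -0.11. That is no test of a difference. The Tfh effect was the more negative in 200 of the 213 genes. The share over all tested genes is not given here. The unadjusted p of edgeR was below 0.05 in 83, against 4.7% of all tested genes, and the lowest adjusted p was 0.408. Of the 71 that fell in Tfh cells, 65 were higher in empty vector replicate 2 than in replicate 1. The genes of these lists are thus not separate observations, and no single one was shown to differ between the cell types.

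**Figure D5:**
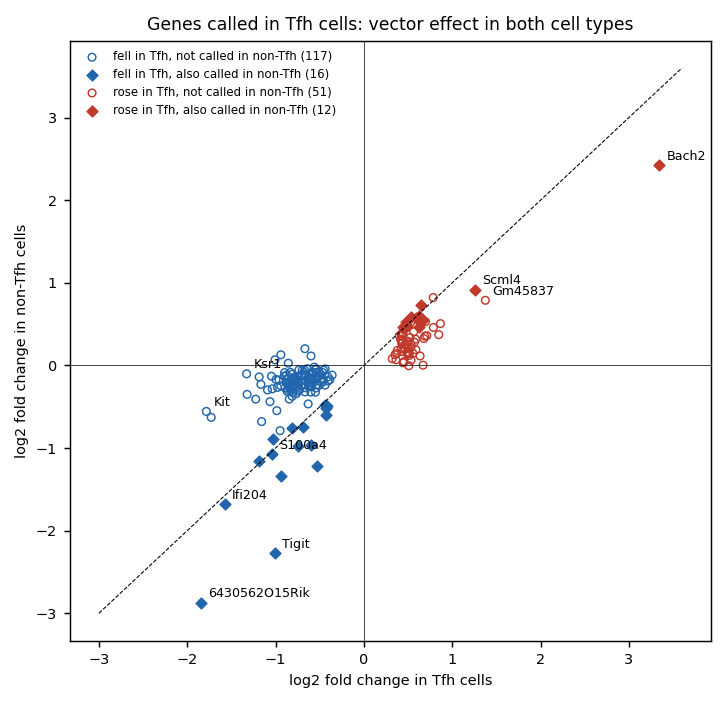
Log2 fold change of Bach2 minus empty vector in non-Tfh cells (vertical) against Tfh cells (horizontal) for the 196 genes past the threshold in Tfh cells. Filled diamonds were also past the threshold in non-Tfh cells in the same direction (16 that fell and 12 that rose), open circles were not, and the dashed line marks equal effects. Most blue circles lie left of 0 and close to 0 on the vertical axis.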

How the data were processed

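Sorted cells gave RNA that was amplified with the Smart-Seq v4 kit, which does not mark strand, and sequenced as Nextera XT libraries (NextSeq500, paired ends), per the labels' protocols. The authors deposited raw counts per Ensembl gene, which are whole numbers without normalization. TopHat2, Bowtie2 and featureCounts with GRCm38/mm10 are listed in the submitters' processing notes. Tool versions were not given in the sources used here, nor were the annotation and the treatment of multiply matching reads, so counts of close gene copies are uncertain.

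Of 39179 IDs, 37693 matched GENCODE M21 (GRCm38), the source of symbols and positions. Promoter windows are RefSeq's (GRCm38.p6). With edgeR 4.0.16 in R 4.3.3, genes were kept by filterByExpr (minimum count 10, minimum total 15), counts were scaled by TMM factors, and 1 coefficient per group was fitted over 8 libraries with the robust quasi-likelihood test, leaving 4 residual degrees of freedom. Adjusted p-values (Benjamini-Hochberg over 11475 genes) below 0.05 count as past the threshold. An exact test of 2 against 2 cannot go below 0.333. The SE of a log2 fold change was its size over the root of the F statistic. The biological coefficient of variation was 9.89%. The scripts were tested on simulated counts. There, 24 of 50 genes with a 1.5-fold change and 47 of 50 with a 2-fold change were recovered. At 3-fold and 4-fold it was 49 and 50 of 50, and the whole run had 16 false calls. The changed genes were drawn from above a minimum level, so genes of low level were not covered. A gene that did not pass may therefore still have changed by 1.5-fold or, less often, by 2-fold. Genes with a large SE may have changed by more. Replicates differed beyond counting noise (chi-square per degree of freedom 5.77 to 8.97), so each library was counted as 1 sample.

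Named genes are Bach2, the 15 largest rises and falls, up to 6 called members of each list role and 12 called genes in no list per direction by smallest adjusted p, and a short list of Tfh, effector and naive cell genes named whatever their values. Genes cited for marker levels, overlaps, shared calls or the DESeq2 difference are extra. A few genes under this rule are not reported here. The members, gene lists and tests were chosen with earlier results of these data known. Alternatives were DESeq2 1.42.0, other scalings and filters, Tfh libraries alone, no robust estimation, a 1.5-fold null, a replicate block, and leaving out each library.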

Additional observations from a re-analysis of the deposited data

How the results depend on the processing

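All 196 calls kept their direction under every alternative in which they were tested. With other scalings, a minimum count of 50, no robust estimation or the 4 Tfh libraries alone, counts stayed within 1.5 times (55 to 68 rises, 119 to 138 falls). The test of the difference could not be made with the Tfh libraries alone. DESeq2 gave 138 rises and 4 calls for the difference between cell types. Without a low-count filter there were 357 rises, 379 falls, 67 mitosis and 39 replication genes that fell, 21 naive cell genes that rose and 37 calls for the difference. Against a 1.5-fold change, 1 gene rose (Bach2, also the 1 naive cell gene) and 0 fell, with 0 in the mitosis, replication and repair lists. Rises made up 32.1% of the calls, against 42.3% with DESeq2, 48.5% without the filter and 54.5% without Tfh Bach2 replicate 1.

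Leaving out 1 of the 8 libraries gave 6 to 133 rises, 15 to 159 falls, 1 to 46 mitosis, 2 to 31 replication and 0 to 7 repair genes that fell, 3 to 13 naive cell genes that rose and 0 to 1 calls for the difference. A group left with 1 library was assumed to vary like the others.

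With the replicate block (the replicate number as a covariate) there were 200 rises, 273 falls, 17 naive cell genes that rose and 3 calls for the difference. Same-numbered deviations correlated at 0.0263 between the Tfh groups. Of the 5 other pairs of groups 4 were over 0.1, the highest being Tfh with non-Tfh cells under the same vector (0.208 and 0.24), and 1 was at -0.00413. Not every pair is over 0.1, so the numbers were not taken to pair the samples. With the block Klf2 (log2 fold change 0.75, adjusted p = 4.15e-04), S1pr1 (log2 fold change 0.59, adjusted p = 0.00576), Ccr7 (log2 fold change 0.80, adjusted p = 0.0278), Il21 (log2 fold change -0.64, adjusted p = 0.00513) and Mki67 (log2 fold change -0.42, adjusted p = 0.0107) passed. The block gave 3 rises and 12 falls among effector genes, 2 and 7 in the Tfh programme, 7 and 4 in migration and adhesion, 13 and 4 in signalling, 3 and 18 in metabolism and 1 and 12 among interferon-induced genes. In the same order, rises and falls without the filter were 3 and 14, 4 and 11, 8 and 6, 17 and 4, 3 and 19, and 2 and 15. With DESeq2 they were 1 and 9, 0 and 2, 5 and 3, 11 and 4, 2 and 13, and 1 and 5.

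Some named genes that had not passed changed sign under an alternative, and the ranges here cover all alternatives. Their log2 fold changes ran from -0.52 to 0.089 for S1pr2, -0.55 to 0.14 for Pdcd1, -0.092 to 0.49 for Id2, -0.24 to 0.59 for Il7r, -0.36 to 0.25 for Myc, -0.30 to 0.32 for Tbx21, -0.64 to 0.21 for Prdm1 and -0.15 to 0.40 for Irf4. Depth limits genes near 0.382 CPM.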

Other observations

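Klf2 and Pdcd1 differed between the Tfh libraries numbered 1 and 2 with either vector. With the empty vector, Klf2 stood at 187 CPM in replicate 1 and 301 CPM in replicate 2, and Pdcd1 at 659 and 454 CPM. With the Bach2 vector, Klf2 stood at 362 CPM in replicate 1 and 443 CPM in replicate 2, and Pdcd1 at 613 and 381 CPM. Klf2 was thus higher, and Pdcd1 lower, in both libraries numbered 2. Both genes were picked after their values were seen. The labels give the numbers no meaning, and the reason for the difference was not tested.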
